A study of Homo sapiens with 2 samples.

Results

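The 10 genes described here are NFE2L2, which encodes the transcription factor NRF2, and 9 of its known target genes: the aldo-keto reductases AKR1B10, AKR1C1, AKR1C2 and AKR1C3, the quinone reductase NQO1, both subunits of glutamate-cysteine ligase (GCLC and GCLM), TXNRD1 and HMOX1. They were chosen by gene name, and each of the 10 names matched 1 row among the 20263 genes of each deposited table. Their levels were measured by RNA sequencing of Cal-27 cells, an established oral squamous carcinoma line derived from tongue. Cells stably transduced with an shRNA to the nuclear kinase HIPK2 (GV-248-HIPK2-sh) were set against cells with a control vector (sh-scramble). Both were grown in DMEM with fetal bovine serum, and the labels do not say whether they were pools or clones. There was 1 library a group, with a total of 26450251 counts under the HIPK2 shRNA label and of 28064923 for the scrambled control. No spread between cultures could therefore be estimated, no test was made, and each difference compares these libraries and not the conditions.

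NRF2 is a basic leucine zipper protein that the adaptor KEAP1 and the ubiquitin ligase scaffold CUL3 mark for degradation in unstressed cells. When oxidants or electrophiles modify KEAP1, NRF2 accumulates, pairs with a small MAF protein and binds antioxidant response elements near genes for detoxification, glutathione and thioredoxin metabolism and NADPH supply. BACH1 competes for many of these elements, in particular at HMOX1. Because NRF2 is controlled mainly through the stability of its protein, the level of its mRNA and the activity of the factor are separate quantities. Squamous carcinomas often carry mutations that activate the pathway, and the aldo-keto reductases are among its most responsive human targets.

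The label of the samples was checked first. HIPK2 had 218 counts (8.06 CPM, the count scaled to library size) under the HIPK2 shRNA label and 110 counts (4.01 CPM) in the control, a ratio of 2.01 (1.59 to 2.55). Its deposited TPM, which is scaled by transcript length, was 0.873 under the HIPK2 shRNA label and 1.63 in the control, so the counts go against the label and the TPM goes with it. The TPM rests on a transcript length, implied by the deposited values, of 13820 bases under the HIPK2 shRNA label and 3443 bases in the control. Whether the labels are right could not be settled from these values, and each direction below rests on them. The sample is therefore called the library labelled HIPK2 shRNA. Intervals in brackets are 95% counting intervals, which cover counting error only. Of 10 squamous epithelial markers all 10 reached 1 CPM in at least 1 library, with a summed 4034 CPM in the library labelled HIPK2 shRNA and 4737 CPM in the control. Within this list the log2 ratios ran from -2.26 for KRT14 and -1.07 for CDH1 to 0.06 for TP63 and 0.38 for DSG3, with KRT5 at -0.12 and KRT6A at -0.11. The 5 muscle markers had 0 counts in both libraries, as had PTPRC of leukocytes and PECAM1 of endothelium. The 5 endothelial markers summed to 28.6 CPM in the library labelled HIPK2 shRNA and 56.3 CPM in the control, nearly all from CDH5, and KDR was also at 0. For 6 leukocyte markers, of which CD68 and CD14 reached 1 CPM, the sums were 23.9 CPM in the library labelled HIPK2 shRNA and 28.2 CPM in the control. For 6 fibroblast markers, of which 3 reached 1 CPM and DCN was at 0, they were 21.5 CPM in the library labelled HIPK2 shRNA and 18.2 CPM in the control. The part of these markers in the results below was not tested, and for any gene fewer cells with it and less RNA per cell cannot be told apart.

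Of the 10 genes, 9 had a lower level in the library labelled HIPK2 shRNA than in the control and HMOX1 was level. By the rule of size, a log2 ratio of (CPM + 1) of at least 1 in either direction, AKR1C1 was past 2-fold lower and none was past 2-fold higher. Among all 11813 expressed genes, those at 1 CPM or more in a library, 2.87% were past 2-fold lower and 3.26% past 2-fold higher, together 6.13%. By the same rule on deposited TPM + 1, AKR1C2 alone of the 10 was past 2-fold lower and none was past 2-fold higher. The shares were 2.54% and 3.01% of 10885 genes at 1 TPM or more. Without the added 1 TPM, AKR1C2 (3.60-fold), AKR1C1 (3.37-fold), AKR1C3 (2.67-fold) and AKR1B10 (2.15-fold) were all more than 2-fold lower. The share over all genes was not computed for TPM without it. A log2 ratio below 0 was found for 9 of the 10 members and for 50% of expressed genes. In TPM it was found for 8 of the 10 and for 43.3% of genes. At 1.5-fold, AKR1C1, AKR1C2, AKR1C3 and NFE2L2 were lower, 4 of 10 genes, where the background was 9.96%, and none was higher, where it was 10.6%. The median log2 ratio of the 10 genes was -0.53 in CPM and -0.33 in TPM, beside 0.00023 in CPM and 0.071 in TPM for all expressed genes. Adding 1 CPM shrinks the ratio of low genes. Without it, AKR1C1, AKR1C2, AKR1C3 and AKR1B10 were all more than 2-fold lower, 4 of 10 genes against 4.61% of expressed genes, and none was 2-fold higher, against 6.15%. The AKR1C genes can exchange reads, as described below, so the counts of 4 genes given here are not of independent genes. AKR1B10 passed the filter only through the control, where it was higher. At 1 TPM both AKR1B10 and AKR1C1 passed only through the control. For these genes the filter favours a lower level in the library labelled HIPK2 shRNA. The counting interval of the ratio lay wholly below 1 for 8 of the 10 genes, but it did so for 34.6% of expressed genes and above 1 for 32.7%. Such an interval therefore does not show that a difference exceeds the spread between cultures.

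**Figure D1:**
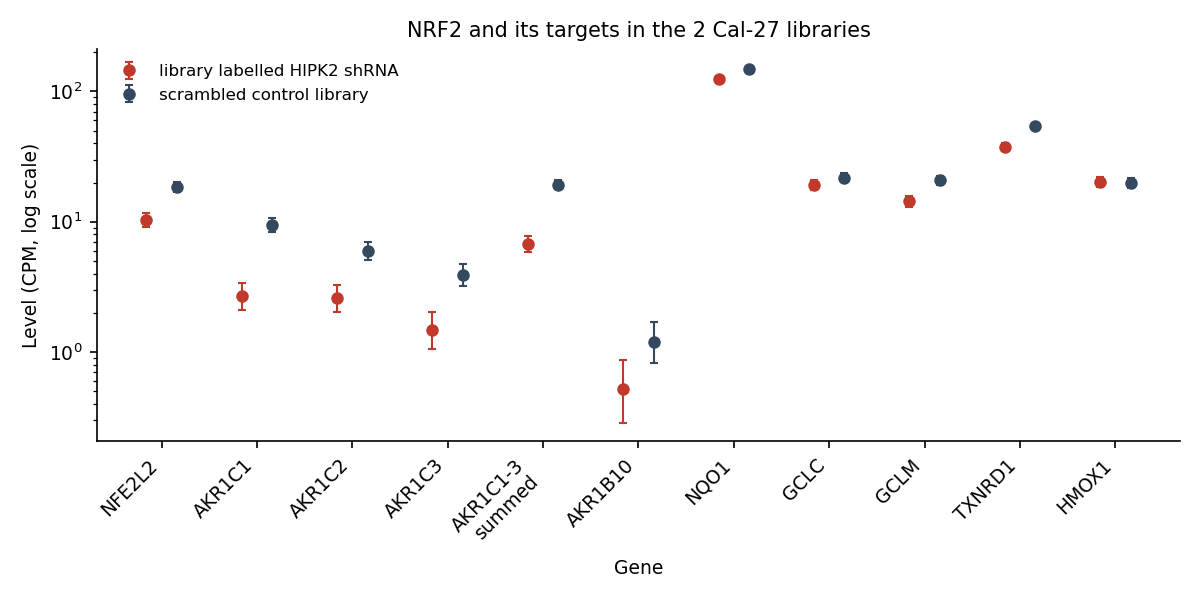
Levels in CPM (log axis) of the 10 genes and of the summed AKR1C1, AKR1C2 and AKR1C3, in the library labelled HIPK2 shRNA (red, left) and the scrambled control (dark, right). Points are single libraries and bars are exact 95% Poisson intervals. The bars of the 2 libraries overlap for HMOX1, GCLC and AKR1B10. They stand apart for the other genes, among them the AKR1C genes at low levels. HMOX1 lies at 20.1 CPM in the library labelled HIPK2 shRNA and 19.9 CPM in the control.

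NFE2L2 (ENSG00000116044, chromosome 2, 177227595 to 177392697, minus strand, on GRCh38) was represented by 280 reads in the library labelled HIPK2 shRNA and by 507 in the control. These are 10.4 CPM (9.17 to 11.6) in the library labelled HIPK2 shRNA and 18.5 CPM (16.9 to 20.2) in the control, 1.79-fold lower (1.54 to 2.07), and the intervals do not overlap. In deposited TPM the difference was smaller, at 7.54 in the library labelled HIPK2 shRNA and 9.44 in the control, 1.25-fold lower. The gene shares exons on the opposite strand with AGPS in GENCODE 29, so its reads may be divided between them. KEAP1 had 119.9 CPM in the library labelled HIPK2 shRNA and 137.6 CPM in the control, a ratio of 0.871 (0.831 to 0.913). CUL3 had 13.1 CPM in the library labelled HIPK2 shRNA and 12.1 CPM in the control, and BACH1 had 5.69 CPM in the library labelled HIPK2 shRNA and 5.65 CPM in the control. Both ratios have intervals that include 1, so no difference was detectable at this depth.

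The 3 AKR1C genes lie side by side on the short arm of chromosome 10 and encode hydroxysteroid dehydrogenases that also reduce carbonyls and lipid aldehydes. AKR1C1 (ENSG00000187134, 4963253 to 4983283, plus strand) inactivates progesterone, AKR1C2 (ENSG00000151632, 4987400 to 5017955, minus strand) inactivates dihydrotestosterone, and AKR1C3 (ENSG00000196139, 5048789 to 5107686, plus strand) makes testosterone and reduces prostaglandins. Their coding sequences have 972 bases each and are so alike that reads can be assigned to the wrong gene. AKR1C1 and AKR1C2 were identical at 98.0% of coding bases, with 19 differences and a longest identical run of 189 bases. AKR1C3 differed from AKR1C1 at 83 bases, an identity of 91.5%, and from AKR1C2 at 87. The first 150 coding bases, the length of 1 read of the study, are shown for the 4 genes of the cluster to make this visible, with capitals where a base differs from AKR1C1. They come from GENCODE 29 transcripts on GRCh38.
AKR1C1: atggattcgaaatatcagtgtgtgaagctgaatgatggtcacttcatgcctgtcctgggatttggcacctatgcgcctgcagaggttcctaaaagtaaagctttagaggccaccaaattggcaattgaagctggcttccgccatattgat
AKR1C2: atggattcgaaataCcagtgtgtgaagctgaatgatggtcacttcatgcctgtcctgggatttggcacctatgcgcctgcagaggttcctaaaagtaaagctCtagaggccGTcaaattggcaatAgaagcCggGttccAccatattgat
AKR1C3: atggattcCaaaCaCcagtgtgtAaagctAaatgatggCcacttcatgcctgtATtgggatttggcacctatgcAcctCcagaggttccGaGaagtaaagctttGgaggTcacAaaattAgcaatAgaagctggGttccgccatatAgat
AKR1C4: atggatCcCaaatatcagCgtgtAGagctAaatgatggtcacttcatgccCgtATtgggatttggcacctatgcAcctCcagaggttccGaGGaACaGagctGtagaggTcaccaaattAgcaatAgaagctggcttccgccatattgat
In this stretch AKR1C2 has 8 differences from AKR1C1, AKR1C3 has 19 and AKR1C4 has 21. Windows of 150 coding bases that occur unchanged in a transcript of another gene made up 4.98% of AKR1C1, 7.66% of AKR1C2 and 2.67% of AKR1C3. The partners were AKR1C2 for AKR1C1 and AKR1C3, and both of these for AKR1C2. For AKR1C4, AKR1B10 and the other 6 members the share was 0.0%. A mapper that allows mismatches can exchange more reads than these shares.

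AKR1C1 had 73 counts in the library labelled HIPK2 shRNA and 259 counts in the control, that is 2.70 CPM (2.12 to 3.39) in the library labelled HIPK2 shRNA and 9.44 CPM (8.33 to 10.7) in the control. It was 3.50-fold lower (2.69 to 4.60), and 0.94% of expressed genes had a log2 ratio as low as its -1.50. With the libraries turned round that share would be 1.18%. AKR1C2 had 70 counts (2.59 CPM) in the library labelled HIPK2 shRNA and 163 counts (5.94 CPM) in the control, and was 2.30-fold lower (1.73 to 3.09). AKR1C3 had 40 counts (1.48 CPM) in the library labelled HIPK2 shRNA and 107 counts (3.90 CPM) in the control, and was 2.64-fold lower (1.82 to 3.90). The 3 intervals of the ratio overlap one another, which does not decide whether the ratios differ. No comparison between the genes was tested. AKR1C4, a liver enzyme of the same cluster, had 0 counts in both libraries, which allows up to 0.111 CPM in the library labelled HIPK2 shRNA and 0.109 CPM in the control.

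A sum over the 3 genes is not affected by reads exchanged among them. It came to 183 counts in the library labelled HIPK2 shRNA and 529 counts in the control, or 6.76 CPM (5.82 to 7.82) in the library labelled HIPK2 shRNA and 19.3 CPM (17.7 to 21.0) in the control. It was 2.85-fold lower (2.41 to 3.39), a log2 ratio of -1.39, which 1.17% of expressed genes equalled or passed, and 1.45% with the libraries turned round. The summed TPM was 2.84 in the library labelled HIPK2 shRNA and 8.95 in the control, 3.15-fold lower, so both units gave the same direction and a similar size. AKR1C1 made up 39.9% of the summed counts (exact binomial interval 32.7 to 47.4) in the library labelled HIPK2 shRNA and 49.0% (44.6 to 53.3) in the control. AKR1C2 made up 38.3% (31.2 to 45.7) in the library labelled HIPK2 shRNA and 30.8% (26.9 to 34.9) in the control. AKR1C3 made up 21.9% (16.1 to 28.6) in the library labelled HIPK2 shRNA and 20.2% (16.9 to 23.9) in the control. The intervals overlap between the libraries for each of the 3 genes, which does not decide whether the shares differ.

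The sequences before a start site of each of the 3 genes are shown because their levels differed in the same direction. For AKR1C3 the RefSeq start site nearest the start of the gene was taken, and a further one, within chr10:5094164-5094463, was left out. The 250 bases before each start site taken (RefSeq, GRCh38.p14) are given 5′ to 3′ on the gene's own strand. They are chr10:4963165-4963414 (plus) for AKR1C1, chr10:5003858-5004107 (minus) for AKR1C2 and chr10:5048531-5048780 (plus) for AKR1C3, with capitals where a base does not match AKR1C1 in a pairwise alignment, unmatched ends included.
AKR1C1: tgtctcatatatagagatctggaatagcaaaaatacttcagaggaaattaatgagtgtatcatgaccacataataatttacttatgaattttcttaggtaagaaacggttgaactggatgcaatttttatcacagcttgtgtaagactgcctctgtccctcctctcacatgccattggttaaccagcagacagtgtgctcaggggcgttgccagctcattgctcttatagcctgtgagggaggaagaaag
AKR1C2: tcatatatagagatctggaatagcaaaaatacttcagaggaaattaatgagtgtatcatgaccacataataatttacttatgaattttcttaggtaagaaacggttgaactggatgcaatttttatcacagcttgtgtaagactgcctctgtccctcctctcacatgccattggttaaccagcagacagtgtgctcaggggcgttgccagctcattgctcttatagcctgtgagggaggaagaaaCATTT
AKR1C3: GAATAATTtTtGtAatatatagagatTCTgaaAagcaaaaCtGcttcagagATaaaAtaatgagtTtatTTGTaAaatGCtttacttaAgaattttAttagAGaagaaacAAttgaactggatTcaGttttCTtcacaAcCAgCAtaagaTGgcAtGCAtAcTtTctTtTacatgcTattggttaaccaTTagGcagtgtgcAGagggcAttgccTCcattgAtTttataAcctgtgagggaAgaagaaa
Where they overlap, AKR1C2 matched AKR1C1 at 99.6% of 246 aligned positions with a run of 245 identical bases, and AKR1C3 matched at 73.2% of 250. For the members, windows from 250 bases before to 50 bases after a start site were searched on both strands for the antioxidant response element core TGACNNNGC. Of the 10 genes, 8 had at least 1 window in the RefSeq table. The core was found in 3 of their 11 windows, for 2 genes, against 13.4% of all 35116 windows. For the listed genes that are no members it was in 19.2% of 156 windows. It was not in the windows of AKR1C1, AKR1C2, AKR1C3, NQO1, GCLC or NFE2L2. Sequence farther from a start site was not searched, so these windows do not show that a gene lacks an element. Matches that end before the start site are printed with the core in capitals, on GRCh38.p14: GCLM at chr1:93909446-93909474 (minus), and TXNRD1 at chr12:104215670-104215698 and at chr12:104286920-104286948 (both plus), before alternative start sites.
GCLM: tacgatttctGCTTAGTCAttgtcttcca
TXNRD1, upstream start: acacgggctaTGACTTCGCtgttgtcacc
TXNRD1, downstream start: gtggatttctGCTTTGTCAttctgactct
A further TXNRD1 match spans the upstream start site. These are matches of letters and were not tested for binding.

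**Figure D2:**
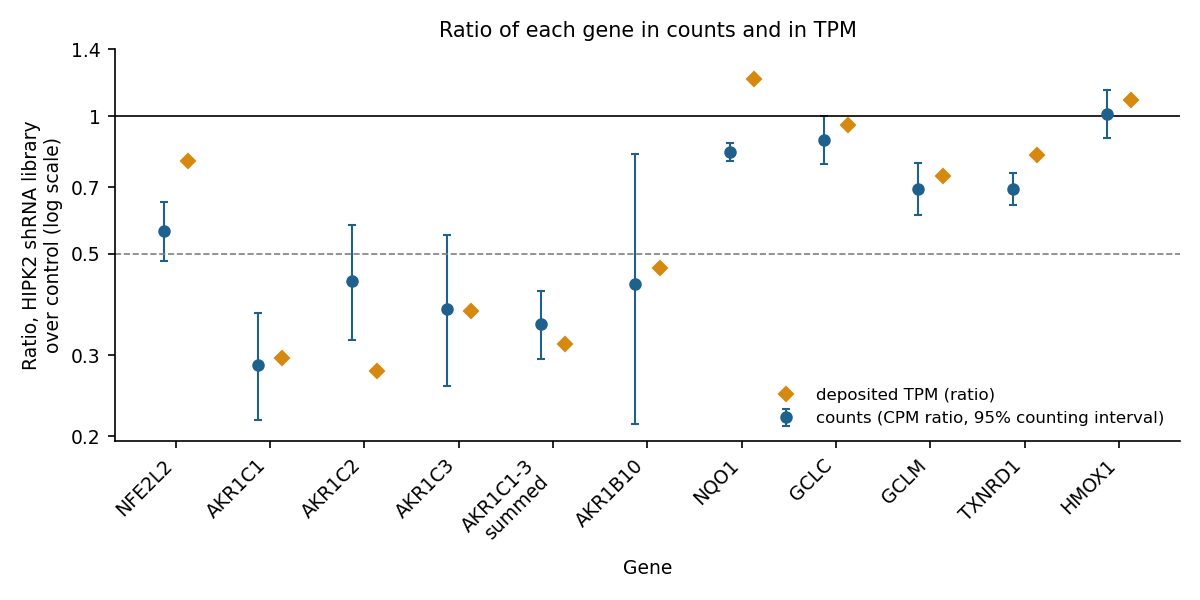
Ratio of the library labelled HIPK2 shRNA over the control for each gene (log axis), in counts (blue, with exact 95% counting intervals) and in deposited TPM (orange diamonds). The solid line marks 1 and the dashed line a 2-fold lower level. The AKR1C genes and AKR1B10 lie below the dashed line in both units, and NQO1 lies below 1 in counts and above 1 in TPM.

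AKR1B10 (ENSG00000198074, chromosome 7, 134527592 to 134541408, plus strand), which reduces retinaldehyde and is often raised in squamous lung tumours, was near the limit of depth. It had 14 counts in the library labelled HIPK2 shRNA and 33 counts in the control, that is 0.517 CPM in the library labelled HIPK2 shRNA and 1.2 CPM in the control, and was 2.33-fold lower (1.21 to 4.70). Its neighbour AKR1B15 had 2 counts in the library labelled HIPK2 shRNA and 1 count in the control, too few for a ratio. AKR1B1, the aldose reductase that is widely expressed, had 265 CPM in the library labelled HIPK2 shRNA and 355 CPM in the control, 1.34-fold lower (1.30 to 1.38). Of the 15 genes of the aldo-keto reductase superfamily listed, 12 were expressed, 6 with a higher and 6 with a lower level. Of all expressed genes 50% were lower. KCNAB3, AKR7A3 and KCNAB1 reached 1 CPM only in the library labelled HIPK2 shRNA, where they were higher, and AKR1B10 only in the control. The filter thus favours their directions, and they are included in the even split and in the median below. Past 2-fold were AKR1C1 and, in the other direction, KCNAB2, a potassium channel beta subunit. Over all expressed genes 2.87% were past 2-fold lower and 3.26% past 2-fold higher. KCNAB2 had 46.1 CPM in the library labelled HIPK2 shRNA and 17.5 CPM in the control, 2.63 times higher (2.36 to 2.93), and shares exons with NPHP4. In deposited TPM it had 21.5 in the library labelled HIPK2 shRNA and 11.4 in the control, a log2 ratio of 0.86, and was not past 2-fold. The median log2 ratio of the 12 genes was 0.053.

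Within 1 Mb of the AKR1C genes on chromosome 10 lay 14 other genes outside the AKR1C family, of which 10 were expressed. None of these 10 was past 2-fold lower and FAM208B was past 2-fold higher, beside 2.87% and 3.26% of all expressed genes. So few genes cannot be told from those shares. The log2 ratios of the 10 neighbours ran from -0.54 for GDI2 to 1.12 for FAM208B, 4 below and 6 above 0. AKR1E2, the closest of them and an aldo-keto reductase too, had 3.14 CPM in the library labelled HIPK2 shRNA and 3.50 CPM in the control, a ratio of 0.898 (0.662 to 1.22). Outside the lists 3471 genes had 50 CPM or more in at least 1 library. Among them the log2 ratios closest to that of the AKR1C sum were those of S100A9 (-1.40), CASP2 (-1.41) and CENPX (-1.35). In TPM they were -1.31 for S100A9, -1.06 for CASP2 and -1.29 for CENPX. CASP2 reached 50 CPM only in the control, at 50.8 CPM, with 18.4 CPM in the library labelled HIPK2 shRNA. With 2 libraries this likeness is of 1 number.

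NQO1 (ENSG00000181019, chromosome 16, 69706996 to 69726951, minus strand), which reduces quinones without forming semiquinone radicals, was the most abundant of the 10 genes per length. Its counts were 3368 in the library labelled HIPK2 shRNA and 4096 in the control, that is 124.5 CPM (120.3 to 128.7) in the library labelled HIPK2 shRNA and 149.3 CPM (144.8 to 154.0) in the control, 1.2-fold lower (1.15 to 1.26). In deposited TPM it stood at 154.0 in the library labelled HIPK2 shRNA and 127.5 in the control, a ratio of 1.21, so the direction depends on the unit. The transcript length that count and FPKM (fragments scaled by length and depth) together imply was 1210 bases in the library labelled HIPK2 shRNA and 1636 bases in the control. How the authors assigned reads to NQO1 transcripts of different length is not stated in the labels or headers.

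GCLC and GCLM, the catalytic and modifier subunits of the enzyme that limits glutathione synthesis, were each lower than in the control by less than 1.5-fold. GCLC (ENSG00000001084, chromosome 6, 53497341 to 53616970, minus strand) had 522 counts in the library labelled HIPK2 shRNA and 596 counts in the control, or 19.3 CPM in the library labelled HIPK2 shRNA and 21.7 CPM in the control. Its ratio of 0.888 (0.788 to 1.0) reaches 1. GCLM (ENSG00000023909, chromosome 1, 93885205 to 93909456, minus strand) had 389 counts (14.4 CPM) in the library labelled HIPK2 shRNA and 569 counts (20.7 CPM) in the control, and was 1.44-fold lower (1.27 to 1.65). TXNRD1 (ENSG00000198431, chromosome 12, 104215779 to 104350305, plus strand), the cytosolic selenoenzyme that keeps thioredoxin reduced, had 1023 counts in the library labelled HIPK2 shRNA and 1495 counts in the control. These are 37.8 CPM in the library labelled HIPK2 shRNA and 54.5 CPM in the control, again 1.44-fold lower (1.33 to 1.56). HMOX1 (ENSG00000100292, chromosome 22, 35380361 to 35394214, plus strand), the inducible heme oxygenase, had 545 counts (20.1 CPM) in the library labelled HIPK2 shRNA and 547 counts (19.9 CPM) in the control, with a ratio of 1.01 (0.895 to 1.14). All 4 genes had the same direction in TPM, with ratios of 0.954 for GCLC, 0.738 for GCLM, 0.821 for TXNRD1 and 1.08 for HMOX1.

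**Figure D3:**
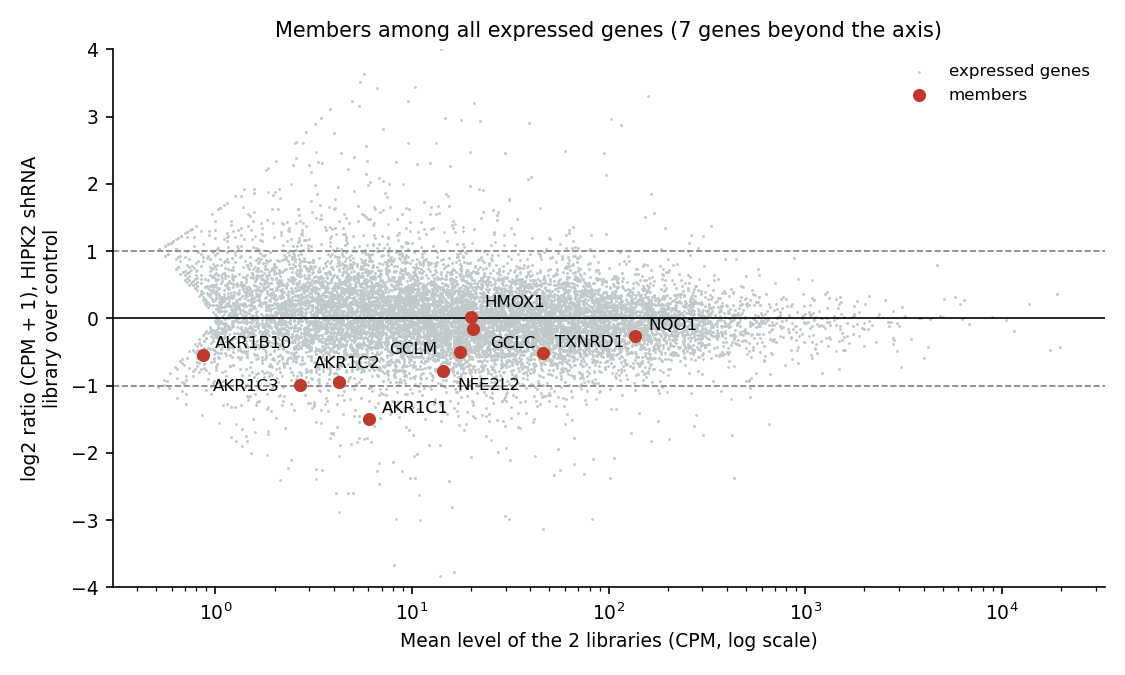
Mean level of the 2 libraries (CPM, log axis) against the log2 ratio of (CPM + 1), library labelled HIPK2 shRNA over control, for all 11813 expressed genes (grey) and the 10 members (red). Dashed lines mark 2-fold, and 7 genes lie beyond the axis. Among the members AKR1C1 lies below the lower dashed line, AKR1C2 and AKR1C3 just above it.

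Levels of different genes can be compared per length only, in TPM. In the library labelled HIPK2 shRNA the order was NQO1 (154.0 TPM), TXNRD1 (20.3), HMOX1 (16.6), GCLC (8.03), NFE2L2 (7.54), GCLM (4.84), AKR1C3 (1.22), AKR1C2 (1.02), AKR1C1 (0.599) and AKR1B10 (0.480). In the control it was NQO1 (127.5 TPM), TXNRD1 (24.7), HMOX1 (15.3), NFE2L2 (9.44), GCLC (8.41), GCLM (6.55), AKR1C2 (3.69), AKR1C3 (3.24), AKR1C1 (2.02) and AKR1B10 (1.03). The order differs between the libraries for GCLC with NFE2L2 and for AKR1C2 with AKR1C3, and with 1 library each no spread tells neighbours apart. The place of AKR1C1 depends on its transcript model: its implied length was 6745 bases in the library labelled HIPK2 shRNA and 6532 bases in the control, and that of AKR1C3 was 1820 bases in the library labelled HIPK2 shRNA and 1680 bases in the control. AKR1C1 had the highest count of the 3 genes in both libraries. AKR1C2 had an implied length of 3778 bases in the library labelled HIPK2 shRNA and 2248 bases in the control, and its TPM was 3.60-fold lower where its CPM was 2.30-fold lower. NFE2L2 differed the other way, with 2054 bases in the library labelled HIPK2 shRNA and 2733 bases in the control.

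**Figure D4:**
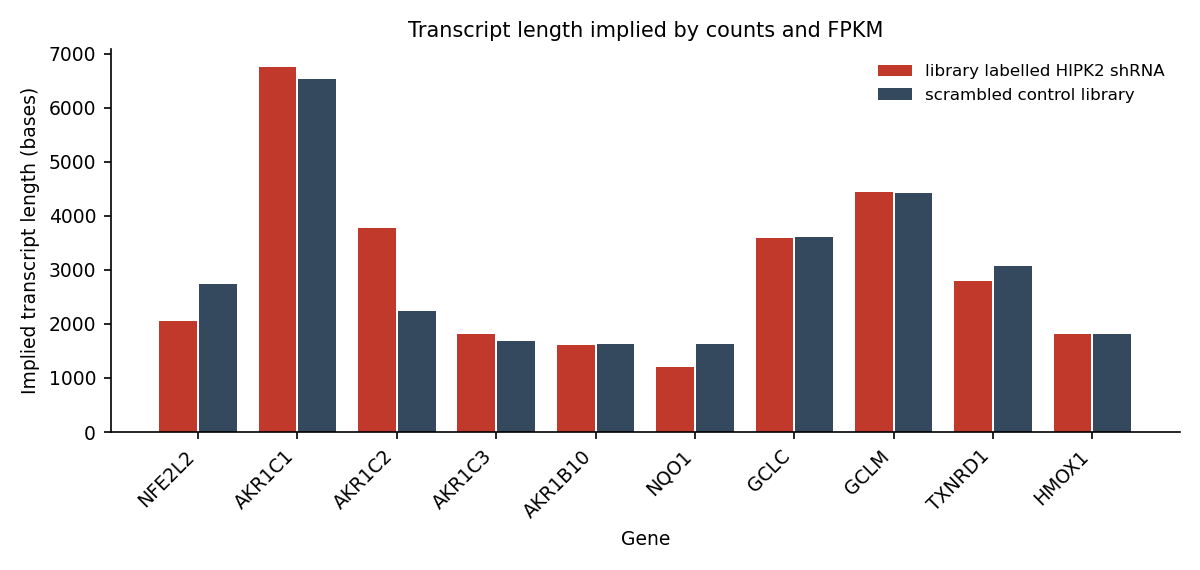
Transcript length in bases implied by count and FPKM for the 10 genes, in the library labelled HIPK2 shRNA (red, left) and the control (dark, right). Bars start at 0. Lengths are nearly equal for GCLC, GCLM, HMOX1 and AKR1B10 and differ for NFE2L2, AKR1C2 and NQO1.

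The wider pathway was described by 127 further genes on 8 lists, grouped by role, of which 111 were expressed. Of the 111, 68 had a lower and 43 a higher level in the library labelled HIPK2 shRNA, where 50% of all expressed genes were lower. In TPM 62 of the 111 were lower, where 43.3% of genes at 1 TPM or more were. Past 2-fold lower were 5 of the 111 and past 2-fold higher 3, where 2.87% and 3.26% of all expressed genes were. The median log2 ratio of the 111 was -0.18. The lists overlap with the members, so counts per list below include members. The shares of 50%, 2.87% and 3.26% apply beside each of those counts in CPM. Beside counts of lower genes in TPM stands 43.3%, a share over genes at 1 TPM, where the counts cover genes at 1 CPM.

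The regulators of NRF2 divided evenly, with 10 of 20 expressed genes higher and 10 lower and a median of -0.047. MAFG, a small MAF partner of NRF2, was past 2-fold, at 50.7 CPM in the library labelled HIPK2 shRNA and 17.6 CPM in the control, 2.88 times higher (2.59 to 3.20). It shares exons with SIRT7, and its TPM was 16.7 in the library labelled HIPK2 shRNA and 6.19 in the control. The other small MAF genes listed were not higher. MAFK had 151.2 CPM in the library labelled HIPK2 shRNA and 211.7 CPM in the control, a ratio of 0.714 (0.686 to 0.743). MAFF had 11.71 CPM in the library labelled HIPK2 shRNA and 12.65 CPM in the control, a ratio of 0.926 (0.793 to 1.08). The chromatin remodeller CHD6 was 1.91 times higher (1.52 to 2.40), the acetyltransferase EP300 1.61 times (1.48 to 1.75) and RXRA, a nuclear receptor that binds NRF2, 1.48 times (1.37 to 1.6). None of 20 regulators was past 2-fold lower.

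Of the 5 further genes past 2-fold lower, 4 were glutathione genes. Of 24 expressed genes 16 were lower and 8 higher in the library labelled HIPK2 shRNA. Past 2-fold lower were 4 and past 2-fold higher 0, with a median of -0.24. GPX3 went the other way, with 65 counts in the library labelled HIPK2 shRNA and 25 counts in the control, 2.64 times higher (1.64 to 4.36). Its log2 ratio was 0.83 in CPM, short of the rule, and 1.24 in TPM, past 2-fold. It passed the filter only through the library labelled HIPK2 shRNA. GPX2, a glutathione peroxidase of epithelia, had 57 counts in the library labelled HIPK2 shRNA and 266 counts in the control, 4.60-fold lower (3.45 to 6.24). The glutathione transferase GSTM3 had 20.3 CPM in the library labelled HIPK2 shRNA and 55.4 CPM in the control, 2.73-fold lower (2.48 to 3.02). GGT1, which cleaves extracellular glutathione, had 24.5 CPM in the library labelled HIPK2 shRNA and 62.2 CPM in the control, 2.53-fold lower (2.32 to 2.78), and shares exons with SNRPD3. GSTM2 had 14 counts in the library labelled HIPK2 shRNA and 74 in the control, passed the filter only through the control and shares exons with GSTM1 and GSTM4, so its reads may belong to its relatives. SLC7A11, the cystine transporter that supplies glutathione synthesis, was level at 4.66 CPM in the library labelled HIPK2 shRNA and 4.63 CPM in the control, a ratio of 1.01 (0.780 to 1.30).

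In the thioredoxin and peroxiredoxin system 13 of 17 expressed genes were lower in CPM and 12 in TPM, with none past 2-fold and a median of -0.36. PRDX1, an abundant peroxidase, had 490.2 CPM in the library labelled HIPK2 shRNA and 978.1 CPM in the control, 2.0-fold lower (1.95 to 2.04), a log2 ratio of -0.995 that falls just short of the rule. GLRX was 1.92-fold lower (1.71 to 2.17), TXNRD3 1.75-fold (1.5 to 2.04), and TXNIP, an inhibitor of thioredoxin, 1.65-fold (1.58 to 1.73). SRXN1, which repairs overoxidised peroxiredoxins, was 1.21-fold lower (1.16 to 1.26). Of 10 genes of NADPH supply 7 were lower in CPM (median -0.31) and 6 in TPM. MTHFD2, a mitochondrial folate enzyme, was past 2-fold at 45.2 CPM in the library labelled HIPK2 shRNA and 105.6 CPM in the control, 2.34-fold lower (2.19 to 2.5), and shares exons on the opposite strand with SLC4A5. RPIA was 1.98-fold lower (1.77 to 2.22), IDH1 1.77-fold (1.61 to 1.94) and PGD 1.27-fold (1.25 to 1.30).

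Quinone and carbonyl detoxification genes were lower for 11 of 16 expressed genes in CPM and for 9 in TPM, with a median of -0.26 in CPM. CBR3, a carbonyl reductase, was 1.96-fold lower (1.66 to 2.33), ALDH3A1 1.78-fold (1.5 to 2.12) and PTGR1 1.67-fold (1.48 to 1.88). ALDH3A2, a fatty aldehyde dehydrogenase, was past 2-fold higher in counts, at 24.2 CPM in the library labelled HIPK2 shRNA and 11.5 CPM in the control, but its TPM was 9.54 in the library labelled HIPK2 shRNA and 7.92 in the control. Heme and iron genes were lower for 9 of 14 expressed genes in CPM and for 7 in TPM, with none past 2-fold and a median of -0.11 in CPM. The ferritin chains went in opposite directions: FTL had 2410 CPM in the library labelled HIPK2 shRNA and 3150 CPM in the control, and FTH1 had 6411 CPM in the library labelled HIPK2 shRNA and 5161 CPM in the control. BLVRA, a biliverdin reductase that acts after heme oxygenase, was 1.66-fold lower (1.5 to 1.84), the transferrin receptor TFRC 1.43-fold (1.37 to 1.5), HMOX2 1.43-fold (1.37 to 1.49) and the iron transporter SLC11A2 1.39-fold (1.25 to 1.54). Of 7 expressed genes among other antioxidant enzymes none was past 2-fold, with SOD1 1.49-fold lower (1.44 to 1.54), SOD2 1.26-fold (1.2 to 1.33), MSRA 1.14-fold (1.01 to 1.29) and CCS, the copper chaperone of SOD1, 1.45 times higher (1.35 to 1.55).

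**Figure D5:**
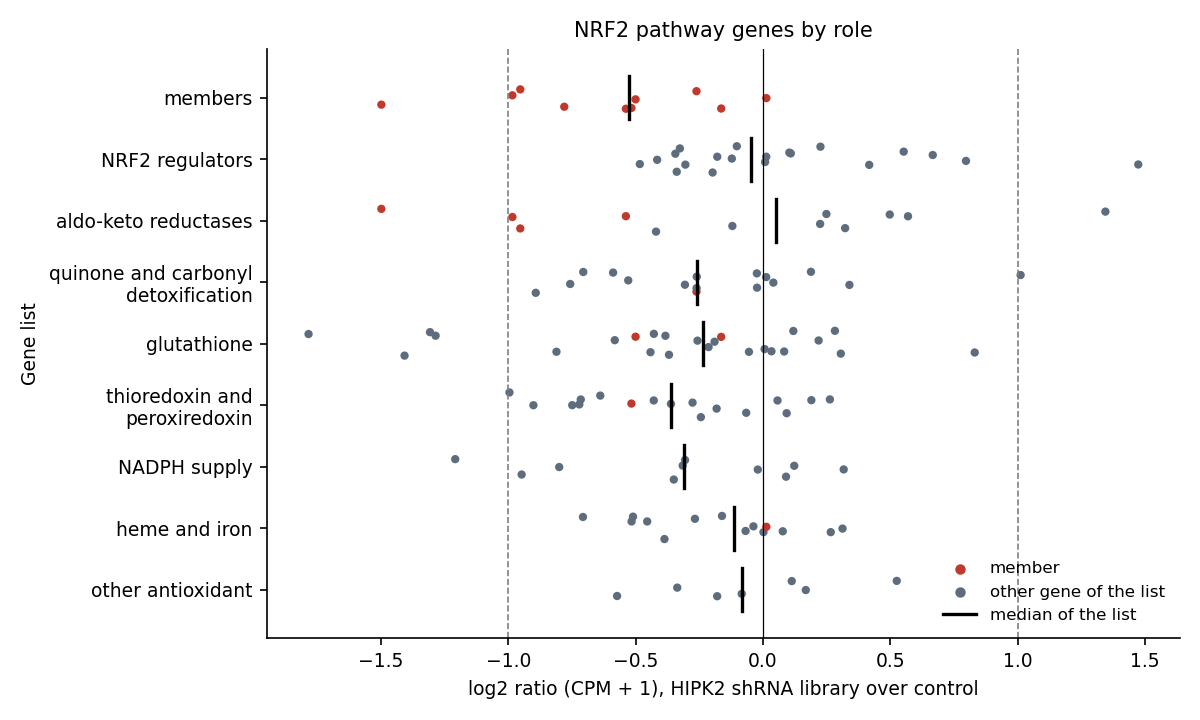
The log2 ratio of (CPM + 1), library labelled HIPK2 shRNA over control, of the expressed genes of each list (rows). Red points are members, grey points other genes of the list, black bars the median of each list, and dashed lines 2-fold. The members lie mostly left of 0, with a median of -0.53, and the regulators are spread on both sides.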

How the data were processed

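Each of the 2 files holds 1 library. The submitters' processing notes name FastQC, TopHat2 2.1.1 and the build GRCh38 (hg38). How reads were counted, on which annotation, with or without strand, and what was done with reads that match several genes was not given in the sources used. The deposited count of each gene is a whole number, with no normalization. The authors also deposited TPM and FPKM per gene, per the file headers.

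CPM used TMM factors from edgeR 4.0.16 (1.02 for the library labelled HIPK2 shRNA and 0.977 for the control), with no test because 1 library a group leaves no residual degrees of freedom. Log2 ratios used CPM + 1, or TPM + 1 for the deposited TPM, which understates low genes. Exact intervals (Clopper-Pearson, conditional on the sum of both counts; Poisson for levels) came from scipy 1.17.1 and cover counting error only. A count of 0 was taken to allow 3 counts. Without molecular identifiers, reads cannot be taken as independent molecules. Implied length is count over FPKM, scaled by its median ratio to annotated length over 431 genes with 1 transcript in GENCODE 29, of which 98.6% then lay within 10%. Coding identity, windows and exon overlaps used GENCODE 29, and promoters RefSeq on GRCh38.p14. Intervals and the rule of size were run on counts simulated from the mean of these libraries with counting error only. That setting cannot show how they behave between cultures.

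The members, lists and rules were chosen with earlier results of these data known. Named besides the members are list genes past 2-fold, up to 4 per list with the largest log2 ratios in size, and a fixed set (KEAP1, CUL3, BACH1, AKR1C4, AKR1B1, AKR1B15, SLC7A11, SRXN1, FTL, FTH1, and 1 gene not reported here); neighbours of the AKR1C genes and the reading of lengths were chosen after values were seen. MAFK, MAFF, GPX3 and the genes named for passing the filter through 1 library only were also added after values were seen. Alternatives were other scalings, pseudocounts, filters, folds, the deposited TPM, other sums and lists without members or genes sharing exons.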

Additional observations from a re-analysis of the deposited data

How the results depend on the processing

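No paired analysis was possible because 1 library stands for each group, and for that reason none could be left out. The log2 ratio of the summed AKR1C genes, -1.39, ran from -1.50 with a pseudocount of 0.1 CPM to -1.05 with one of 5 CPM. It was -1.37 in TPM and -1.38 with AKR1B10 added, and adding AKR1C4 left it as it was. The count of 1 member past 2-fold lower became 4 with a pseudocount of 0.1 CPM, 0 with one of 5 CPM, 0 with a filter at 10 CPM, which removes all AKR genes of the 10, 4 at 1.5-fold and 0 at 4-fold. Over all expressed genes the 339 lower and 385 higher became 515 and 676 with a pseudocount of 0.1 CPM, 161 and 124 with one of 5 CPM, 217 and 159 at a minimum of 10 CPM, 1176 and 1254 at 1.5-fold, and 48 and 62 at 4-fold. For the further pathway genes 5 lower and 3 higher became 5 and 5 when 0.1 CPM was added, 3 and 3 with a filter at 10 CPM, 19 and 6 at 1.5-fold, 0 and 0 at 4-fold, and 2 and 1 without genes sharing exons. By the log2 ratio of (TPM + 1) the member past 2-fold was AKR1C2 (-1.21), with AKR1C1 at -0.92. Without the added 1 TPM, AKR1C2 was 3.60-fold and AKR1C1 3.37-fold lower. Of 60 values of single members under other scalings, pseudocounts and TPM, 1 changed sign, NQO1 in TPM (0.27). List medians changed sign in 7 of 89 cases, all among the regulators, the aldo-keto reductases and the other antioxidant enzymes. Apart from what each setting's own rule removes, the cause was not tested. At this depth the aldo-keto reductases rest on few reads, as 1 count is worth 0.0370 CPM in the library labelled HIPK2 shRNA and 0.0365 CPM in the control.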

Other observations

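Some listed genes lay outside the rules above and are given as values, chosen after they were seen. CREBBP, an acetyltransferase that assists NRF2, had 1400 counts in the library labelled HIPK2 shRNA and 1406 counts in the control, but a deposited TPM of 11.3 in the library labelled HIPK2 shRNA and 30.96 in the control, with implied lengths of 6835 bases in the library labelled HIPK2 shRNA and 2312 bases in the control. UGT1A6, a glucuronosyltransferase that shares exons with 8 other UGT1A genes, had 0 counts in the library labelled HIPK2 shRNA and 20 counts in the control, and was below the filter in both. Over 9103 genes with at least 100 counts in each library, the implied length differed by more than 1.2 times between the libraries for 11.1%. Of the members, NFE2L2 and NQO1 did so, and AKR1C1, AKR1C2, AKR1C3 and AKR1B10 were too low in count to enter.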
